A study of Mus musculus with 10 samples.

Results

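Kcnn4, Piezo1, Piezo2, Trpv2, Trpv3, Trpv4, Trpv6, Trpc1, Trpc4 and Trpc6 encode ion channels of the plasma membrane, and their transcripts were read here in cultured mouse keratinocytes that were labelled as lacking Sgpp1 or as wild type. Every probe set annotated to exactly 1 of these genes was taken, which gave 14 of the 45101 probe sets of the array and covered 9 of the 10 genes among 18193 genes measured. Trpv3 had 0 such probe sets and is not analysed here, and 0 probe sets were shared between a channel gene and another gene. The genes were selected on the KO and WT signals of these same arrays, in which Kcnn4 and Piezo2 had been seen to be lower in KO, so the values of the 10 genes in this contrast are given as a description and not as a test.

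Keratinocytes, which make up most of the epidermis, had been isolated from the skin of mice and kept for 3 to 4 days in EMEM at 0.05 mM calcium, supplemented with 8% fetal calf serum, a low calcium concentration that is the usual way to hold mouse keratinocytes in a proliferating state. The 5 KO samples were labelled Sgpp1-/- and numbered 8, 9, 10, 21 and 23, and the 5 WT samples were labelled Sgpp1+/+ and numbered 1 to 5, with 1 Affymetrix Mouse430_2 array each, a 1-colour array of the mouse transcriptome. Sgpp1 encodes sphingosine-1-phosphate phosphatase, which removes the phosphate from the signalling lipid sphingosine-1-phosphate, and the series title names keratinocyte differentiation as its subject. The labels give neither strain, sex nor age, and do not say which part of Sgpp1 was disrupted or whether the samples came from separate animals, so any p-value covers only the spread between these samples.

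Kcnn4 encodes the intermediate-conductance calcium-activated potassium channel, whose gate is opened by calcium inside the cell and which lets potassium leave the cell, so that the membrane potential keeps drawing calcium in. Piezo1 and Piezo2 are cation channels opened by mechanical force, and Piezo2 is best known from Merkel cells and touch neurons. TRP channels pass cations in response to heat, osmotic stress, lipids or receptor signals. Those of the V group include Trpv3 and Trpv4, known from warmth sensing and barrier function of keratinocytes, and those of the C group act downstream of phospholipase C.

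The arrays can be set beside their labels as follows. The Sgpp1 transcript did not fall with the KO label: its brightest probe set averaged 8.82 ± 0.24 in KO and 7.67 ± 0.84 in WT (log2 signal, mean ± SD, n = 5 each), and all 3 of its probe sets had the KO arrays above the WT arrays. Every direction below therefore rests on the submitters' labels, and KO and WT stand for the arrays labelled so. Array medians lay between 5.02 and 5.17, and 11 of 12 listed basal keratinocyte markers were measured and all 11 lay above the background level defined below, with Krt5 at 12.73 ± 0.10 in KO and 12.78 ± 0.06 in WT (log2 signal, mean ± SD, n = 5 each). Some arrays stood apart. Fibroblast markers were highest on KO 23, WT 3 and WT 4, myeloid and melanocyte markers on KO 23 and WT 5, and the immediate early gene Fosb on KO 8, WT 1 and WT 2. WT 1 also had the lowest mean correlation with the other arrays, 0.955, against 0.967 to 0.977 for the rest. Its limma array weight was the lowest too, 0.23, against 0.66 to 2.46, so values resting on WT 1 are less certain. In bulk RNA, fewer cells of a type and less transcript per cell cannot be told apart.

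The signal of olfactory and vomeronasal receptor genes, which keratinocytes are not known to use, served as a guide to the background. The mean signals of 71 such genes had a median of 2.34 and a 95th percentile of 4.25 on the log2 scale. Kcnn4, Piezo1, Piezo2, Trpv4, Trpv6 and Trpc4 had a mean above 4.25, while Trpv2, Trpc1 and Trpc6 lay below it. Probe sets bind with different strength, so a higher signal of one gene than another does not show more transcript.

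The 250 bases before the annotated start of 3 of the genes are shown for orientation, Kcnn4 because it had the largest difference between the groups, and Trpv6 and Trpv4 because both had their highest WT signals on WT 1 and WT 2, arrays with high Fos and Fosb, which encode subunits of the AP-1 transcription factor. The sequences are RefSeq's in the build GRCm38.p6, written 5′ to 3′ on the gene's strand, with matches to TGANTCA (AP-1), CACGTG (an E-box) and GGGCGG (a GC box) on either strand in capitals. They lie at chr7:24370013-24370262 (plus strand) for Kcnn4, chr6:41636406-41636655 (minus strand) for Trpv6 and chr5:114658422-114658671 (minus strand) for Trpv4.
Kcnn4: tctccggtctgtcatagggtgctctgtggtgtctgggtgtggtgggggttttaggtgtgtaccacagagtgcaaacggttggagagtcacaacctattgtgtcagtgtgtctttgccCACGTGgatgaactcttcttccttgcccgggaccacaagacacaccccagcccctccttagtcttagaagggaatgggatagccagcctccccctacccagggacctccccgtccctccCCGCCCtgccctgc
Trpv6: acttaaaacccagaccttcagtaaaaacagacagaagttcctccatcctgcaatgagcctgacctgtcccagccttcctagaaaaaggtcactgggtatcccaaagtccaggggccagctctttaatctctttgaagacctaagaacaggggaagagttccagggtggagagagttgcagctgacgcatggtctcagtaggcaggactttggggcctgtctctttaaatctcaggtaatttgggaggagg
Trpv4: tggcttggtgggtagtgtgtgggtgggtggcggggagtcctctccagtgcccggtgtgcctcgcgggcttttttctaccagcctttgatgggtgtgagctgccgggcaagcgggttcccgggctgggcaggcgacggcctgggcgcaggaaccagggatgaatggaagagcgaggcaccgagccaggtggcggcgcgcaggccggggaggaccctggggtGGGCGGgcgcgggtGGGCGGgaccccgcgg
The Kcnn4 window held 1 CACGTG, starting at position -133 from the annotated start, and 1 GC box, on the opposite strand, at position -14. The Trpv4 window held 2 GC boxes and the Trpv6 window 0 matches to any of the 3 motifs. TGANTCA occurred in 0 of these 3 windows. Of 32851 windows of the same length in the RefSeq table, 6.75% held TGANTCA, 6.02% held CACGTG and 32.7% held GGGCGG. A match is a run of letters and was not tested as a binding site, and a missing match says nothing about a factor acting elsewhere.

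Kcnn4 had a lower signal in keratinocytes labelled KO. Its brightest probe set, 1435945_a_at, read 6.86, 6.75, 7.02, 6.10 and 7.72 on KO 8, 9, 10, 21 and 23, against 9.06, 8.62, 7.73, 8.12 and 10.59 on WT 1 to 5 (log2 signal). All 5 KO arrays lay below all 5 WT arrays, but only just: the highest KO array, KO 23, was 0.013 below the lowest WT array, WT 3. The group means were 6.89 ± 0.58 in KO and 8.82 ± 1.11 in WT (SD, n = 5 each), a log2 difference of -1.94 (SE 0.46, KO minus WT), or a 3.83-fold lower level. The WT arrays were spread more widely than the KO arrays, with WT 5 far above the other four.

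The other Kcnn4 probe set, 1421038_a_at, was dimmer and ran the same way with a smaller difference. It read 5.28, 5.57, 5.02, 5.35 and 6.10 on KO 8, 9, 10, 21 and 23, against 6.88, 6.41, 5.99, 5.94 and 7.83 on WT 1 to 5 (log2 signal), a difference of -1.15. Here KO 23 lay above WT 3 and WT 4, so the groups overlapped, and KO 23 and WT 5 were again the highest array of their group.

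Kcnn4 and Piezo2 were the 2 of 9 measured channel genes past the threshold of 0.05 in the limma fit over all genes, both lower in KO, where 0.346% of the 18193 genes were past it in that direction and 2.65% in either; 0 were higher, beside 2.30% of all genes. Kcnn4 was also the only one of the 9 whose groups did not overlap, where 1.02% of all genes had every KO array below every WT array, 3.36% had every KO array above and 4.38% either. These shares refer to the contrast in which the genes were picked, and nothing is read from them. Kcnn4 lost its place past the threshold without KO 8 (difference -1.93), KO 9 (-1.90), KO 10 (-1.97), KO 21 (-1.74), WT 1 (-1.88), WT 2 (-1.99) or WT 4 (-2.11), each left out alone, although the direction was kept. Without WT 5, its highest array, the difference was -1.50 (SE 0.32) and remained past the threshold.

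**Figure D1:**
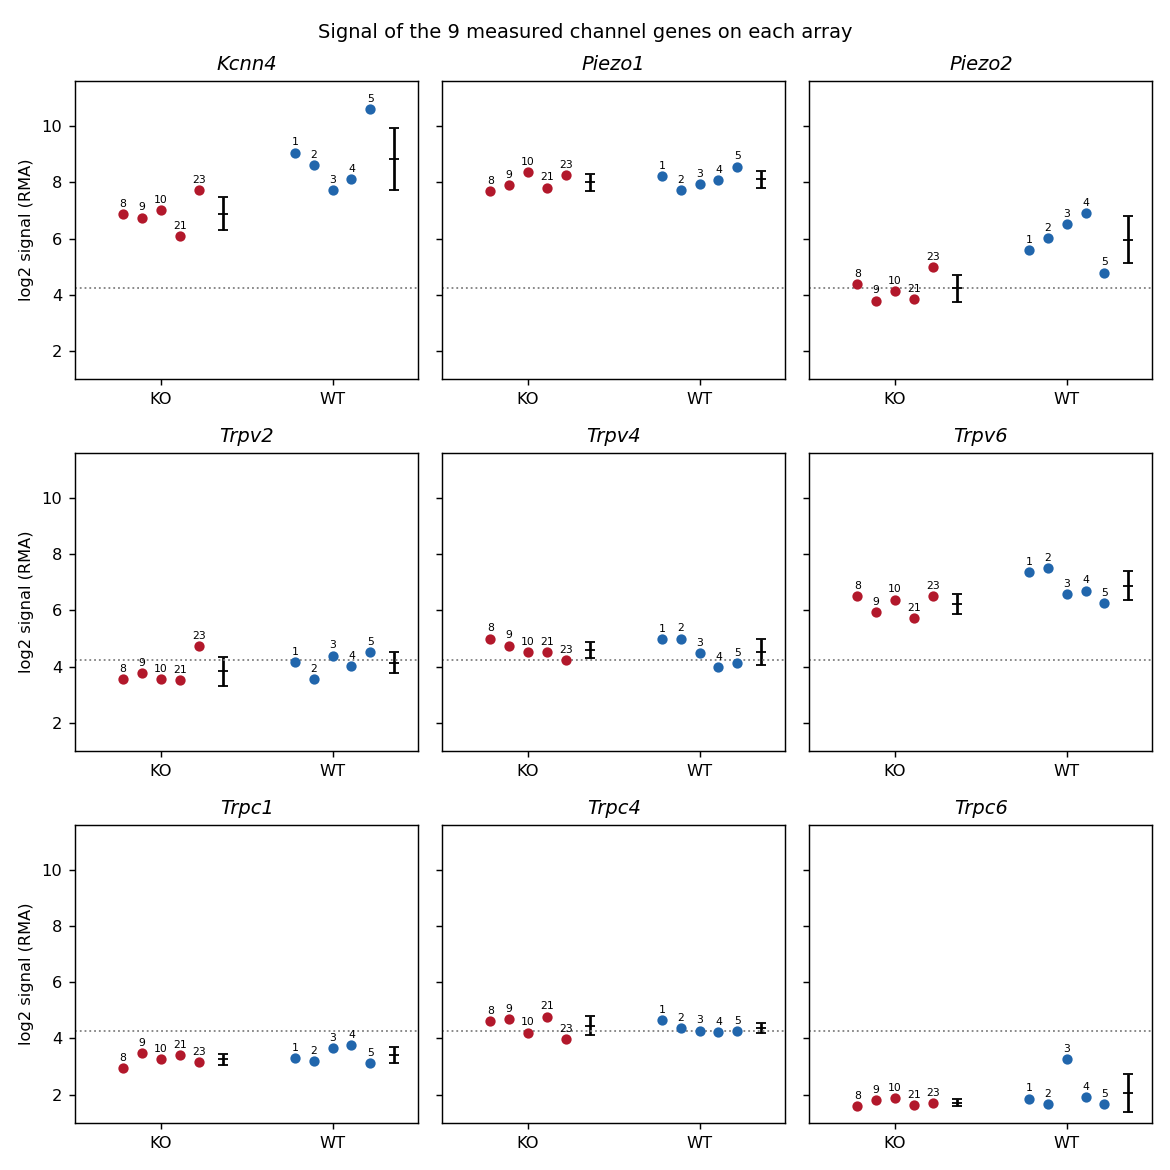
Log2 signal of the brightest probe set of each of the 9 measured channel genes (y axis) on the 5 KO arrays (red, left) and the 5 WT arrays (blue, right); numbers are sample numbers, black bars are mean ± SD (n = 5), and the dotted line is the background level of 4.25. Kcnn4 lies at 6.10 to 7.72 in KO and 7.73 to 10.59 in WT, and the groups of the other 8 genes overlap.

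The arrays with the highest Kcnn4 signal in each group, KO 23 and WT 5, were also those with the most myeloid and melanocyte transcript. Of 13 listed myeloid markers all 13 were measured, and their summed linear signal ranged from 542 to 2540 in KO and from 717 to 2660 in WT, with KO 23 and WT 5 at the top. The defining markers Ptprc, Itgam, Adgre1, Cd207, H2-Aa and H2-Ab1 stayed at or below the background level on all 10 arrays. The 9 melanocyte markers, all measured and none of them at background on all arrays, summed to 2870 to 9120 in KO and 1040 to 9700 in WT. Among the other WT arrays the match did not hold. WT 1, next after WT 5 for Kcnn4 at 9.06, had the lowest melanocyte sum and a myeloid sum of 769. WT 3, lowest in WT for Kcnn4 at 7.73, came next after WT 5 in both sums, at 1204 (myeloid) and 4843 (melanocyte). In KO, KO 10 came next after KO 23 for both Kcnn4 (7.02) and the myeloid sum (788.5). By mean log2 signal, however, the myeloid list was lower on KO 10 (4.39) than on any other KO array. Without KO 23 and WT 5 the Kcnn4 difference was -1.70 (SE 0.29) and stayed past the threshold. Kcnn4 is also well known from T cells. Of 11 listed T cell markers 8 were measured, 4 of them with a mean above the background level, and they summed to 125 to 237 in KO and 118 to 200 in WT, again highest on KO 23 and WT 5. By mean log2 signal the list was highest on KO 9 (4.20) and WT 1 (4.31), with KO 23 at 4.10 and WT 5 at 3.83. Il7r alone was highest on both KO 23 and WT 5 within their groups, while Zap70, Cd8a and Cd2 were lowest on both. The cytokine receptor gene Il7r read 7.08 on KO 23 and 3.54 to 5.04 on the other KO arrays, against 6.85 on WT 5 and 3.92 to 5.53 on the other WT arrays (log2 signal), while Cd3e and Cd3g were at or below background on all arrays. The part of these cells in the Kcnn4 signal of KO 23 and WT 5 was not tested.

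Cornified and proliferation genes, which differ between the groups on these arrays, are given beside Kcnn4. Both lists were chosen with earlier results of these data known. The 16 cornified and spinous genes averaged 10.02 to 10.51 in KO and 7.64 to 8.50 in WT (mean log2 signal of the list per array), without overlap. All 16 rose, beside 2.30% of all genes, and Hrnr, Calm4, Dsc1 and Casp14 had the smallest adjusted p. The 13 measured proliferation genes averaged 7.29 to 8.33 in KO and 8.10 to 8.83 in WT. Of the 13, 2 fell and 0 rose, beside 0.346% of all genes lower and 2.30% higher. Those that fell were Prc1, a regulator of cytokinesis, and the proliferation marker Mki67. They fell by 0.94 (limma adjusted p = 0.0296) and 0.56 (limma adjusted p = 0.0401) on the log2 scale. Both lost the call without KO 9 (Prc1 -0.88, Mki67 -0.50) and without several other single arrays. Proliferation genes on KO 8 and KO 23 lay within the WT range, at 8.33 and 8.20, while Kcnn4 on the same arrays read 6.86 and 7.72. The part of either list in the Kcnn4 difference was not tested.

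Among genes with a mean of at least 5, the 5 whose deviations from the group means were most like those of Kcnn4 over the 10 arrays were Mrm3, Shroom3, Hsp90aa1, Itga3 and Edn1, with Pearson r of 0.99, 0.98, 0.96, 0.95 and 0.95. They are the highest of 10362 genes ranked and are given as a description. Mrm3 encodes a mitochondrial RNA methyltransferase, Shroom3 an organiser of apical actomyosin, Hsp90aa1 a cytosolic chaperone, Itga3 an integrin that binds laminins and Edn1 the peptide endothelin. Edn1 read 8.11, 7.93, 8.08, 7.58 and 9.21 on KO 8, 9, 10, 21 and 23, against 9.83, 9.14, 8.14, 8.86 and 10.43 on WT 1 to 5 (log2 signal). As with Kcnn4, KO 23 and WT 5 were the highest of their groups and WT 3 was the lowest WT array. None of the 5 genes passed between KO and WT (limma adjusted p between 0.119 and 0.591).

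Several enzymes set the activity of the Kcnn4 channel. Of 11 listed genes for its regulators 6 had a probe set of their own, and, beside 2.65% of all genes, 0 of the 6 passed in either direction. They were Nme1 and Nme2, encoding nucleoside diphosphate kinases, of which the Nme2 product activates the channel, Phpt1, encoding the phosphatase that reverses this, Mtmr6, encoding an inhibitory lipid phosphatase, Trim27, a ubiquitin ligase gene, and the casein kinase gene Csnk2a1. Csnk2a1 had the smallest adjusted p, averaging 9.42 ± 0.19 in KO and 9.71 ± 0.14 in WT (log2 signal, mean ± SD, n = 5 each; limma adjusted p = 0.405). Nme2 differed by -0.09 (limma adjusted p = 0.884). The median difference of the 6 was -0.12, beside -0.01 for all 18193 genes.

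Kcnn4 was then set beside the other potassium channel genes. All 83 measured genes with a symbol beginning Kcn, other than Kcnn4, were read, auxiliary subunits and 1 antisense RNA, Kcnq1ot1, included. Of the 83, 0 rose and 0 fell, beside 2.30% of all genes higher and 0.346% lower. The median difference of the 83 was -0.01, with a range from -0.44 to 0.70. A mean above the background level was found for 29 of them, and 39 stayed at or below it on all arrays. Kcnk6, encoding a tandem-pore background potassium channel, had the smallest adjusted p and averaged 7.47 ± 0.29 in KO and 6.77 ± 0.35 in WT (SD, n = 5 each), a log2 difference of 0.70 (SE 0.19, limma adjusted p = 0.0933). Its KO arrays all lay above its WT arrays, but it did not pass. Kcnq1ot1 differed by -0.28 (limma adjusted p = 0.875), and over its other 5 probe sets the differences ran from -0.44 to 0.03.

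Piezo1 had signals well above background and nearly the same range in both groups. Its 1 probe set read 7.68, 7.89, 8.37, 7.81 and 8.27 on KO 8, 9, 10, 21 and 23, against 8.22, 7.71, 7.95, 8.08 and 8.56 on WT 1 to 5 (log2 signal). The difference of -0.10 (SE 0.19) was smaller than the SD within either group, 0.30 in KO and 0.32 in WT (n = 5 each). Without WT 5 its sign turned, to 0.016.

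Piezo2 was lower in KO on 1 of its 2 probe sets. The probe set that stood for the gene, 1442115_at, read 4.38, 3.80, 4.14, 3.85 and 4.997 on KO 8, 9, 10, 21 and 23, against 5.60, 6.01, 6.51, 6.92 and 4.79 on WT 1 to 5 (log2 signal). WT 3 and WT 4 were the highest arrays, and WT 5 lay inside the KO range, below KO 23. The means were 4.23 ± 0.49 in KO and 5.96 ± 0.83 in WT (SD, n = 5 each), and KO minus WT was -1.73 (SE 0.36). Since 3 of the 5 KO values lay below the background level, the log2 difference may understate the change. The other probe set, 1430736_at, averaged 4.86 ± 0.19 in KO and 5.13 ± 0.47 in WT (SD, n = 5 each), and KO minus WT was -0.27. Its highest array was WT 1 at 5.91, and WT 3 and WT 4, the highest on the first probe set, read 4.86 and 4.90. The array annotation does not say which transcripts the 2 probe sets read, and they did not run together across the WT arrays.

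**Figure D2:**
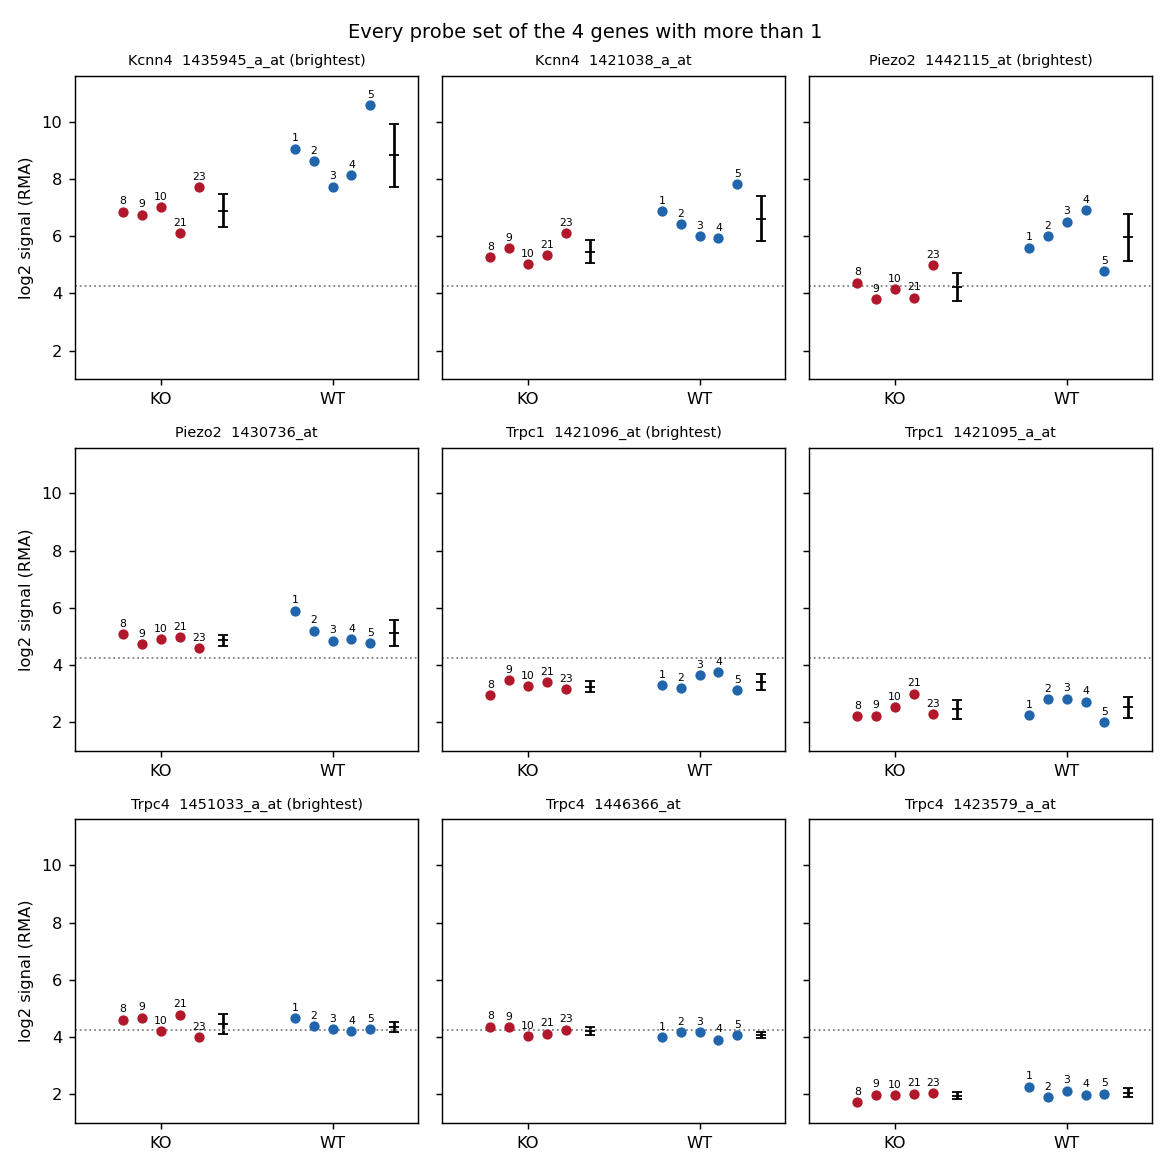
Log2 signal (y axis) of each probe set of Kcnn4, Piezo2, Trpc1 and Trpc4 on the 5 KO arrays (red, left) and the 5 WT arrays (blue, right), with sample numbers, mean ± SD (n = 5) and the background level of 4.25 as a dotted line. Both Kcnn4 probe sets are lower in KO, with differences of -1.94 and -1.15, while those of Piezo2 differ by -1.73 and -0.27.

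Fibroblast transcript and Piezo2 were highest on the same arrays within each group, but the other KO arrays ranked differently. Of 13 listed fibroblast markers 12 were measured, and their summed linear signal ranged from 1020 to 5630 in KO and from 964 to 17200 in WT. The highest KO array was KO 23 and the highest WT arrays were WT 3 and WT 4, and the same arrays were highest for Piezo2 within each group. Only Lum was at or below background on all arrays. KO 8, next after KO 23 in KO for Piezo2 at 4.38, had the lowest mean fibroblast marker signal in KO, 5.47. KO 9 had Piezo2 at 3.80 with a mean marker signal of 6.63. WT 1 and WT 2 had Piezo2 at 5.60 and 6.01 with a mean marker signal of 5.48 and 5.75. The part of fibroblast transcript in the Piezo2 difference was not tested. Without WT 3, WT 4 and KO 23 the Piezo2 difference was -1.42 (SE 0.29) and remained past the threshold. It left it without KO 9 (-1.62), KO 10 (-1.71), KO 21 (-1.63) or WT 4 (-1.49), each left out alone.

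The genes most like Piezo2 by deviations from the group means over the 10 arrays were Nynrin, Mmp2, Acta2, Csrp2 and Jcad, with Pearson r of 0.95, 0.94, 0.93, 0.93 and 0.93, again the highest of 10362 genes and given as a description. Mmp2 encodes a matrix metalloproteinase, Acta2 smooth muscle actin, Csrp2 a LIM domain protein of smooth muscle and Jcad a junctional protein of endothelial cells. Acta2 read 10.30, 9.34, 9.83, 9.04 and 10.78 on KO 8, 9, 10, 21 and 23, against 10.05, 9.64, 11.81, 11.79 and 8.68 on WT 1 to 5 (log2 signal), so WT 3 and WT 4 were highest and WT 5 lowest in WT. None of the 5 passed between KO and WT (limma adjusted p between 0.0829 and 0.939). The 11 muscle markers, all measured and with Myh1 and Tnnt3 at background on all arrays, summed to 746 to 2040 in KO and 613 to 4200 in WT.

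Markers of Merkel cells and sensory neurons, the cells in which Piezo2 is best known, were read as a list. Of 16 listed markers 15 were measured, 5 of them with a mean above the background level, and 8, among them Atoh1, Sox2, Krt20, Scn10a and the 3 neurofilament genes, stayed at or below background on all 10 arrays. The list summed to 371 to 788 in KO and 501 to 2220 in WT, with the highest sums on WT 2 and WT 1. Krt18, a keratin gene of simple epithelia and Merkel cells, read 5.15 to 7.39 in KO, against 8.77 on WT 1, 10.24 on WT 2 and 6.08 to 7.92 on the other WT arrays (log2 signal), a difference of -1.42 (limma adjusted p = 0.427). Its partner keratin gene Krt8 read 4.66 to 6.47 in KO, against 7.62 on WT 1, 9.24 on WT 2 and 4.37 to 5.76 on the other WT arrays. WT 3 and WT 4, the highest arrays for Piezo2, were not high for either keratin gene, and the part of these cells in the Piezo2 difference was not tested. Endothelial markers, 9 of 9 measured, summed to 107 to 150 in KO and 127 to 148 in WT, with Tie1, Cldn5, Plvap, Tek and Emcn at background. The 7 mast cell markers summed to 105 to 129 in KO and 101 to 131 in WT, with 4 at background.

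**Figure D3:**
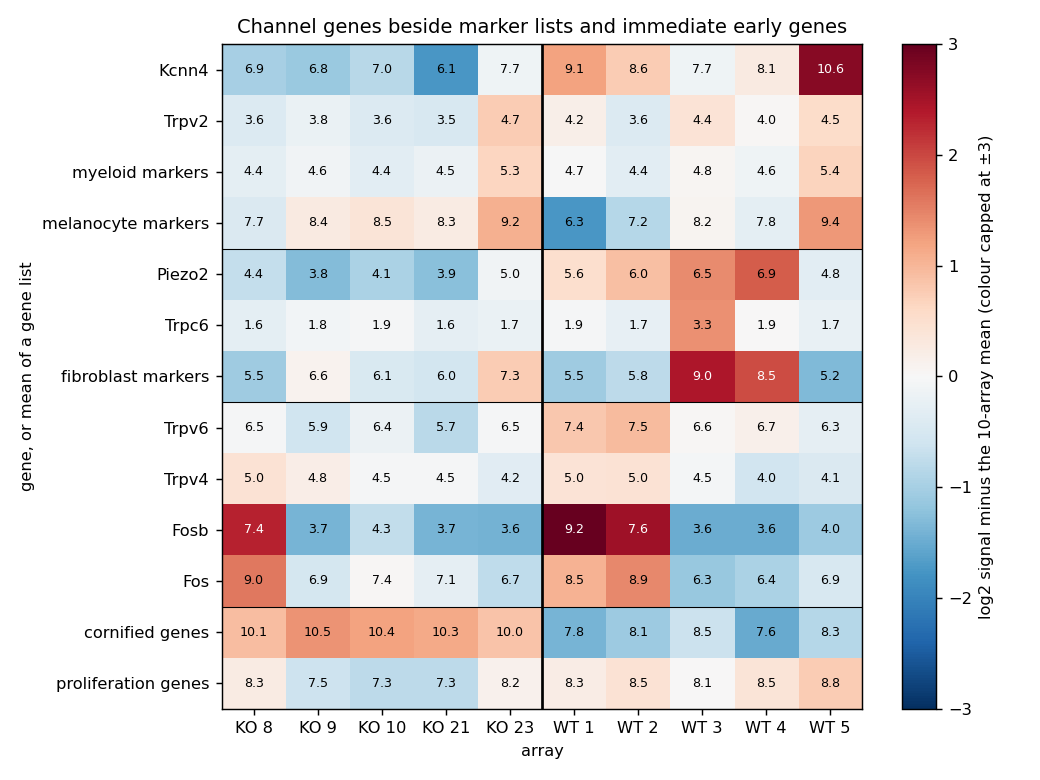
Log2 signal of channel genes and of Fos and Fosb, and mean log2 signal of marker lists (rows), on the 5 KO arrays (left of the line) and the 5 WT arrays (columns); printed numbers are the signals and colour is the difference from the row's 10-array mean. Piezo2 is highest on WT 3 and WT 4 with the fibroblast list, Trpv6 on WT 1 and WT 2 with Fosb, and Trpv2 on KO 23 and WT 5 with the myeloid list.

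Trpv6, of the V group, is an epithelial channel that is highly selective for calcium, and its signal lay above background on all 10 arrays. It read 6.51, 5.94, 6.38, 5.74 and 6.51 on KO 8, 9, 10, 21 and 23, against 7.36, 7.49, 6.59, 6.70 and 6.27 on WT 1 to 5 (log2 signal). WT 1 and WT 2 stood above every other array, and 4 WT arrays lay above all KO arrays, with WT 5 inside the KO range. The means of 6.22 ± 0.36 in KO and 6.88 ± 0.53 in WT (SD, n = 5 each) differed by -0.67 (SE 0.25), which was not past the threshold.

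WT 1, WT 2 and KO 8 were the arrays with high Fos and Fosb. As a list, the 14 immediate early genes averaged 8.32 on WT 1 and 8.41 on WT 2, below KO 10 at 8.44, and KO 8 was highest at 8.84 (mean log2 signal). Fosb read 7.36 on KO 8, 9.22 on WT 1 and 7.60 on WT 2 and no higher than 4.31 on the rest, and the poly-A spike-in controls averaged 10.12, 10.40 and 9.81 on the same arrays and no more than 9.51 elsewhere (log2 signal). On KO 8 Trpv6 read 6.51, no higher than on KO 23. Without WT 1, WT 2 and KO 8 the Trpv6 difference was -0.37 (SE 0.21), smaller by more than 1.5 times. What sets these 3 arrays apart, and its part in the Trpv6 difference, was not tested. Over the 14 listed immediate early genes, Egr3 (2.09, limma adjusted p = 0.00460) and Zfp36 (0.78, 0.00757) rose and 0 fell, beside 2.30% of all genes higher and 0.346% lower. The other Egr3 probe set differed by 0.07.

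Trpv4, a channel opened by warmth and osmotic swelling, was dim and did not separate the groups. It read 5.003, 4.75, 4.52, 4.52 and 4.23 on KO 8, 9, 10, 21 and 23, against 4.98, 5.003, 4.49, 3.99 and 4.12 on WT 1 to 5 (log2 signal). Its 3 highest arrays were KO 8, WT 1 and WT 2, the arrays with high Fosb. The background genes averaged 2.67 on KO 8, the highest in KO, and 2.93 on WT 1, the highest in WT (mean log2 signal). They averaged 2.55 on WT 2, 2.52 on WT 3 and WT 4 and 2.49 on WT 5. The part of either in the Trpv4 signal was not tested. The difference of 0.09 (SE 0.22) changed sign without KO 8 (-0.012), WT 4 (-0.045) or WT 5 (-0.011).

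Trpv2, a channel studied in sensory neurons and macrophages, had a mean below the background level. It read 3.57, 3.78, 3.57, 3.51 and 4.74 on KO 8, 9, 10, 21 and 23, against 4.17, 3.57, 4.39, 4.03 and 4.53 on WT 1 to 5 (log2 signal), a difference of -0.30 (SE 0.25). KO 23 and WT 5, the arrays with the most myeloid transcript, had its highest values, while the other 4 KO arrays lay between 3.51 and 3.78. Without KO 23 the difference was -0.53 (SE 0.19), and without KO 23 and WT 5 it was -0.43 (SE 0.19), not past the threshold either way.

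The partners of these channels were read from lists. For Trpv6, 11 of 12 listed genes of transcellular calcium transport were measured, 6 of them with a mean above the background level. Of the 11, 0 passed in either direction, beside 2.65% of all genes. The 11 included S100a10 and Anxa2, whose products carry the channel to the membrane, the calcium pump gene Atp2b1 and vitamin D receptor gene Vdr. S100a10 had the smallest adjusted p of the list, 11.95 ± 0.25 in KO and 12.25 ± 0.06 in WT (log2 signal, mean ± SD, n = 5 each; limma adjusted p = 0.381). The vitamin D enzymes Cyp24a1 and Cyp27b1 and the calbindin gene Calb1 were at or below background on all arrays. For Trpv3 and Trpv4, 10 of 10 listed partners were measured, of which 2 rose and 0 fell, beside 2.30% of all genes higher and 0.346% lower.

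Those that rose were transglutaminase genes, whose products cross-link the cornified envelope and which also stand on the cornified list above. Tgm3 averaged 7.10 ± 0.52 in KO and 5.41 ± 0.51 in WT (log2 signal, SD over 5 arrays each), so that KO minus WT was 1.69 (SE 0.28, limma adjusted p = 0.00506), and its other probe set differed by 1.34. Tgm1 averaged 9.10 ± 0.16 in KO and 7.97 ± 0.48 in WT (SD, n = 5 each), and KO minus WT was 1.13 (SE 0.21, limma adjusted p = 0.0104). For both genes the lowest KO array exceeded the highest WT array. Without WT 3, WT 4 and KO 23, the arrays with the most fibroblast transcript, the Tgm1 difference was 0.74 and did not pass (limma adjusted p = 0.084). The other listed partners, Egfr and its ligand gene Tgfa, the protease gene Adam17, Ano1, Aqp5, Cttn, Cdh1 and Ctnnb1, did not pass. Since Trpv3 had no probe set of its own, nothing can be said here of its own transcript.

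The TRPC genes were at or near background. Trpc1 read 2.95 to 3.48 in KO and 3.13 to 3.77 in WT on its brighter probe set, and 2.22 to 3.01 in KO and 2.02 to 2.83 in WT on the other (log2 signal), so all 20 values lay under 4.25. Trpc4, with 3 probe sets, had means of 4.45, 4.22 and 1.95 in KO and 4.36, 4.06 and 2.06 in WT, and the differences were 0.09, 0.16 and -0.11. Trpc6 read between 1.60 and 1.87 in KO and between 1.66 and 1.91 on 4 WT arrays, while WT 3 read 3.27. WT 3 was also the array with the highest fibroblast signal, and without it the Trpc6 difference of -0.35 (SE 0.27) was -0.05 (SE 0.14). At such signals the arrays cannot show whether these 3 genes differed between KO and WT.

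Receptor and store signalling upstream of TRPC channels was well measured. Of 18 listed genes for calcium store sensors, Orai channels, Homer scaffolds, inositol trisphosphate receptors, phospholipases C and their G proteins, 17 were measured. Of these 1 rose and 0 fell, beside 2.30% of all genes higher and 0.346% lower. The gene that rose was Homer2, encoding a scaffold that links TRPC channels to inositol trisphosphate receptors, at 6.81 ± 0.34 in KO and 5.63 ± 0.43 in WT (log2 signal, SD over 5 arrays each), so that KO minus WT was 1.18 (SE 0.22, limma adjusted p = 0.0123). Its KO arrays all lay above its WT arrays. Its other 2 probe sets differed by 0.84 and 0.52 and were not past the threshold over all probe sets. Without WT 3, WT 4 and KO 23 the Homer2 difference was 1.00, and without WT 1, WT 2 and KO 8 it was 1.06, and it did not pass in either case.

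None of the other TRP genes measured passed in the data as deposited. Of 21 listed, 18 were measured, and 0 rose and 0 fell, beside 2.30% of all genes higher and 0.346% lower. The median difference of the 18 was 0.05. Trpm7, a channel with a kinase domain, differed by 0.01 (limma adjusted p = 0.985). Trpm1, a channel of melanocytes and retinal bipolar cells, had the smallest adjusted p and averaged 8.51 ± 0.33 in KO and 7.32 ± 0.93 in WT (log2 signal, SD over 5 arrays each), so that KO minus WT was 1.20 (SE 0.37, limma adjusted p = 0.137). On the WT arrays it read 6.10, 7.07, 7.47, 7.24 and 8.69, lowest on WT 1 and highest on WT 5, the arrays with the lowest and highest melanocyte marker signal of 6.35 and 9.39. On the KO arrays both Trpm1 (8.03) and the melanocyte list (7.66) were lowest on KO 8. The list was highest on KO 23 (9.15), where Trpm1 read 8.54, and Trpm1 was highest on KO 10 (8.86). Without WT 5 its difference was 1.54 (limma adjusted p = 0.00951). The 3 other Trpm1 probe sets differed by 0.35 to 0.87. Of 21 further genes for mechanically gated or candidate mechanosensitive channels and their partners 20 were measured, and 0 rose and 0 fell, beside the same shares of all genes. Tmc6 had the smallest adjusted p, 6.11 ± 0.12 in KO and 5.76 ± 0.23 in WT (log2 signal, mean ± SD, n = 5 each; limma adjusted p = 0.279), and Stom, encoding stomatin, differed by 0.67 (limma adjusted p = 0.319).

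Across the 9 measured channel genes, the KO mean was below the WT mean in 7 and above it in 2, Trpv4 and Trpc4, with a median difference of -0.30. Over all 18193 genes it was below in 9536, and the median was -0.01. Of the 7, Trpv2, Trpc1 and Trpc6 had a mean below the background level, and the sign of Piezo1 turned without WT 5. The 3 genes with the largest differences each had another highest array, WT 5 for Kcnn4, WT 4 for Piezo2 and WT 2 for Trpv6. The second highest array was WT 1 for both Kcnn4 and Trpv6, and WT 3 for Piezo2.

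**Figure D4:**
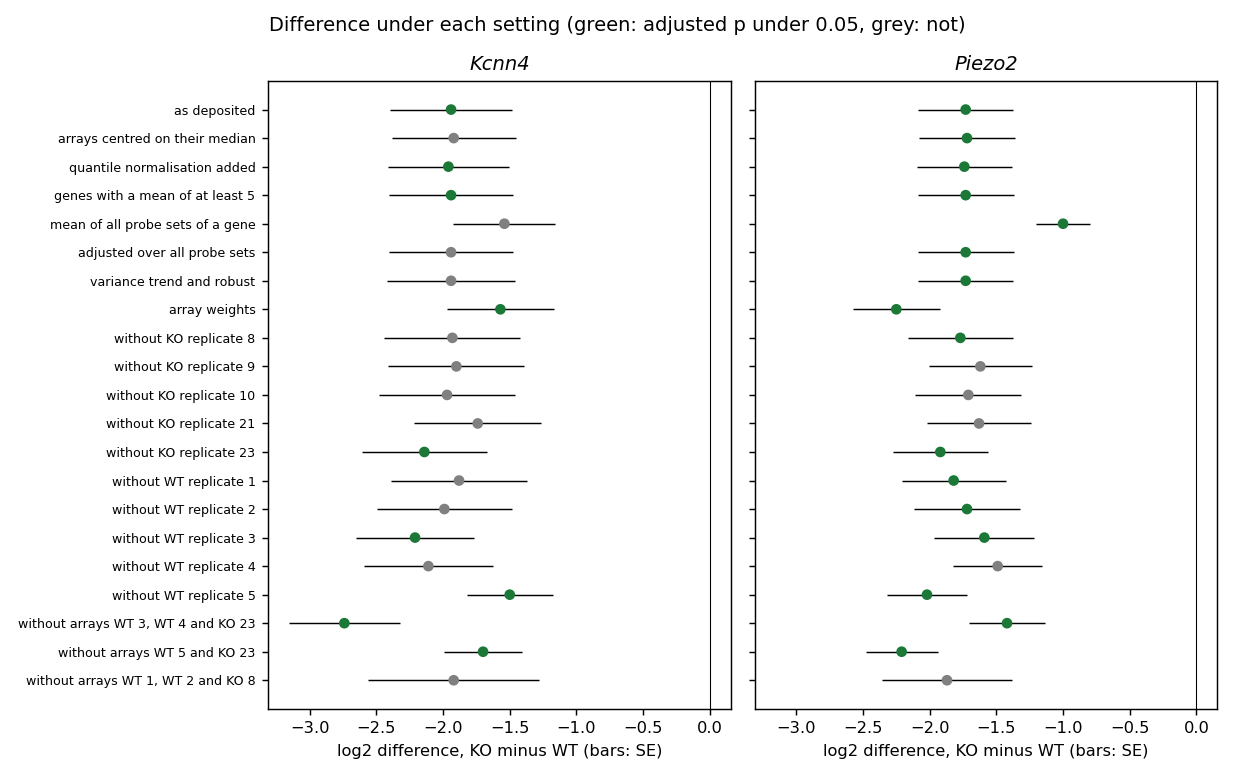
Log2 difference, KO minus WT, with its SE (x axis) of Kcnn4 and Piezo2 in the limma fit as deposited and under 20 other settings (y axis), green where the adjusted p was under 0.05 and grey where it was not. All differences are below 0, from -2.74 to -1.50 for Kcnn4 and from -2.25 to -1.0 for Piezo2.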

How the data were processed

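Total RNA, extracted with Trizol, was labelled as biotinylated cRNA from 6 ug and hybridised to 1-colour Affymetrix arrays, per the labels' protocols. The deposited values are log2 signals made by the authors with RMA, which corrects background, equalises the arrays and combines the probes of a set, per the submitters' processing notes; the software, its version and the genome build are not given in the sources used here. RMA compresses differences near background, and a shift common to most genes cannot be seen. Values ran from 1.13 to 14.92, 0 columns were left out, and precision is limited by having 5 arrays in a group.

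Of 45101 probe sets, 34945 had exactly 1 gene in the platform annotation, 932 had several, 9160 had none and 64 were controls. Symbols were updated through RefSeq's table for GRCm38.p6, which held 34741 of the identifiers. Each gene was read from its brightest probe set by 10-array mean, which gave 18193 genes. KO minus WT was tested two-sided by linear models with moderated variances (limma 3.58.1, lmFit and eBayes, under R 4.3.3), adjusted by Benjamini-Hochberg over all genes with a threshold of 0.05. SE is the moderated standard error, and SD the spread of a group's arrays. On simulated data of 18193 genes, 74% of 100 genes changed by 1 and 97% of 100 changed by 2 (log2) were called. Of the 182 genes called there, 11 were false calls. The simulated noise was independent between genes and equal in both groups, so shifts shared by the genes of an array were not covered. No replicate number occurs in both groups, so nothing was paired.

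The channel genes and lists were chosen with earlier results of these data known. Named genes were, from each list, up to 4 past the threshold or else the one with the smallest adjusted p and the one with the highest mean, the 5 genes most like each of Kcnn4 and Piezo2 among those with a mean of at least 5 and a symbol that is no placeholder, and the brightest marker of each cell type. Genes named beyond these, among them those listed as partners or at background, were picked after their values were seen. A summed signal is the sum of 2 to the power of the log2 values of a list. The 20 alternatives changed the normalisation, the dim filter, the choice of probe set, the variance model, the array weights or the arrays included.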

Additional observations from a re-analysis of the deposited data

Results flagged for a closer look

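Each group of 5 arrays was examined for an array set apart from the rest, in 28 groups over the 14 probe sets, and chance alone sets one apart in about 1 group in 20. In 3 groups the gap to the nearest array took more than 0.71 of the group's range. Trpv2 read 4.74 on KO 23, against 3.51 to 3.78 on the other KO arrays. Trpc6 (probe set 1449431_at) read 3.27 on WT 3, against 1.66 to 1.91 on the other WT arrays. Trpc4 on its dimmest probe set, 1423579_a_at, read 1.73 on KO 8, against 1.97 to 2.04 on the other KO arrays, all of them far under the background level of 4.25. KO 23 also had the highest myeloid marker signal in KO and WT 3 the highest fibroblast marker signal, and their part was not tested.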

How the results depend on the processing

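Kcnn4 and Piezo2 kept their direction in all 20 other settings, but Kcnn4 was no longer past the threshold in 12 of them and Piezo2 in 5. The number of channel genes lower in KO, 2 as deposited, was 1 with arrays centred on their median, with the mean of all probe sets of a gene, with adjustment over all probe sets and with a variance trend and robust fit. It was 0 without WT 1, WT 2 and KO 8, and 0 to 2 with single arrays left out. Over all genes, 419 were higher and 63 lower as deposited. Array weights gave 877 higher and 561 lower. The lower count was 40 with centred arrays, 100 with quantile normalisation, 30 over all probe sets and 95 without WT 5 and KO 23, and the higher count was 266 without WT 3, WT 4 and KO 23. With single arrays left out, 264 to 419 were higher and 13 to 107 lower. Among other TRP genes 1 rose with array weights and without WT 5 and KO 23, and 0 to 1 with single arrays left out (1 without WT 5). Among other potassium channel genes 1 rose with array weights. Among partner and mechanosensitive genes, 3 as deposited, 5 rose with array weights and 1 without WT 3, WT 4 and KO 23. Signs turned without WT 3, WT 4 and KO 23 for Trpv4 (-0.0034), Trpc1 (0.068), Trpc6 (0.00016), Kcnq1ot1 (0.095), Col1a1 (0.85), Acta2 (0.17) and Il7r (-0.51). Il7r was also at -0.061 with array weights, -0.046 without WT 5 and KO 23 and -0.24 without WT 1, WT 2 and KO 8. Trpm7 was at -0.018 with quantile normalisation, -0.0064 with array weights and -0.052 without WT 1, WT 2 and KO 8. With single arrays left out the differences ran from -0.045 to 0.21 for Trpv4, -0.20 to 0.016 for Piezo1, -0.031 to 0.071 for Trpm7, -0.77 to 0.32 for Col1a1 and -0.51 to 0.47 for Il7r. The cause of these shifts was not tested. Leaving out WT 3, WT 4 and KO 23, or WT 5 and KO 23, was chosen after seeing the data. A minimum mean of 5 leaves no value for Trpv2, Trpv4, Trpc1, Trpc4, Trpc6 and Pecam1, whose low signal over background limits any statement on them. No paired analysis was possible because no replicate number occurs in both groups.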
